A study of Mus musculus with 8 samples.

Results

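The DNA replication machinery was followed through 4 mouse models of endometrial cancer by 41 genes chosen by name: the origin recognition complex, the factors that load the MCM helicase and their inhibitor, the 6 MCM subunits, the factors that activate the helicase, the sliding clamp and its loader, the replicative polymerases with primase, the enzymes that finish Okazaki fragments, and replication protein A. All 41 were among the 24419 gene symbols with read counts, and all 41 were among the 15875 genes tested. Each model had 2 libraries of polyadenylated RNA, and every model began as uterus organoids of mice that carry Cas9. TPM organoids were edited by changes that include an sgRNA against Trp53 and overexpression of Myc. TPMCa organoids also carried a mutant Pik3ca cDNA, and TPMR1 organoids an sgRNA against Pik3r1, so that both alter phosphatidylinositol 3-kinase (PI3K). TPK organoids also received an sgRNA against Trp53, but no Myc. All 4 were grown in the uterus of nude mice, which lack mature T cells. The sample labels call the material tumor organoids, whereas the methods describe tumor tissue of the recipient mouse, which holds host cells too.

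DNA replication starts where the origin recognition complex sits on chromatin and, with Cdc6 and Cdt1, loads the ring of Mcm2 to Mcm7 around the double helix. Cdc45 and the GINS complex then turn that ring into a running helicase, RPA coats the bare strands, polymerase alpha with primase starts each new strand, and polymerases delta and epsilon, held by the clamp Pcna, extend it. Most of these genes are transcribed with the cell cycle, many under control of E2F factors, and their mRNA is therefore widely read as a sign of dividing cells.

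The promoters are shown for an E2F-type word, held by a part of the genes, which was not itself used to choose them. Many replication genes are known to be under E2F control, so the share with a word is not independent of the choice. In the RefSeq table of GRCm38.p6, 33 of the 41 genes matched, with 41 promoters of 300 bases around the annotated start. The words TTTCCCGC, TTTCGCGC, TTTGCCGC and TTTGGCGC, searched on both strands, were found in 15 of these 41 promoters (36.59%), against 744 of 32851 promoters of the same length (2.265%). By gene, 15 of 33 (45.45%) held one. CCAAT was in 56.1% of the member promoters and 37.41% of all promoters, and TTTGAA, the core of the cell cycle homology region, in 12.2% and 17.89%. The 8 unmatched genes were Gins1, Gins2, Gins4, Gmnn, Pole, Mcm4, Rfc2 and Prim2. Below are the promoters of 4 genes that hold such a word and passed the test in a comparison given further on. Capitals mark the words, and each sequence reads 5′ to 3′ on the strand of the gene. Orc3 (an origin recognition subunit) is at chr4:34614893-34615192, minus strand, Mcm6 (a helicase subunit) at chr1:128359656-128359955, minus strand, Pola1 (the catalytic subunit of polymerase alpha) at chrX:93632106-93632405, minus strand, and Cdt1 (a helicase loader) at chr8:122567765-122568064, plus strand.
Orc3: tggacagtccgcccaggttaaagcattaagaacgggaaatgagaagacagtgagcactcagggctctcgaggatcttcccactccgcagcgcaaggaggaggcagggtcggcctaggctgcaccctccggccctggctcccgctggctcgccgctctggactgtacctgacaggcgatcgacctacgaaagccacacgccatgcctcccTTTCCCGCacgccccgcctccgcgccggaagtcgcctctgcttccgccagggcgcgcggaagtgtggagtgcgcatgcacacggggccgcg
Mcm6: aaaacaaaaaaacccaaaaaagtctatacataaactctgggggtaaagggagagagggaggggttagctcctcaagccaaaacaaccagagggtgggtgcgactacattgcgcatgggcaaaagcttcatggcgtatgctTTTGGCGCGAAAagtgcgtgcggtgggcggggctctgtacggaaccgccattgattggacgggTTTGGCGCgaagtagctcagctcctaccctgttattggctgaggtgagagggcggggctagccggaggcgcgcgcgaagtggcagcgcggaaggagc
Pola1: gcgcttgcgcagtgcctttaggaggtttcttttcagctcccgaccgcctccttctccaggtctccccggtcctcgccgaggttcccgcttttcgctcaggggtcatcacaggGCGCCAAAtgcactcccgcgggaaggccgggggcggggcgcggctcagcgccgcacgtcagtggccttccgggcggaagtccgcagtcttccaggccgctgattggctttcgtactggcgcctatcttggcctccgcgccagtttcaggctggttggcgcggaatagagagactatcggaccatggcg
Cdt1: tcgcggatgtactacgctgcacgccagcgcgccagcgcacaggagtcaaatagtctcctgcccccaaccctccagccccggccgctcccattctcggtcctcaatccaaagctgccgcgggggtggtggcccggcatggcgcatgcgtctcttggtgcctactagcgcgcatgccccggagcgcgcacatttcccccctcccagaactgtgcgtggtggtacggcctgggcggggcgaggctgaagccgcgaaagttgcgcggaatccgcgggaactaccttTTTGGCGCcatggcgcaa
Mcm6 held 3 words, of which 2 overlap, and the word of Pola1 lies on the opposite strand. A match is a run of letters and not a measured binding site.

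Library totals were between 15748396 and 26943611 counts, with TPMR1 replicate 1 the deepest, and 3 counts corresponded to 0.116 to 0.198 CPM (counts scaled to a common library size with TMM factors). The lowest count of any member in any library was 60, in Orc1. Pik3r1 was at 101 and 51.3 CPM in the TPMR1 libraries, where it was targeted, and at 99.6 and 188 CPM in TPM, so the groups overlapped. Epithelial markers went against the labelled tissue in the PI3K models: their summed level (Epcam, Cdh1, Krt7, Krt8, Krt18 and Krt19) was 2941 to 5498 CPM in the TPM and TPK libraries and 6.47 to 73.3 CPM in TPMCa and TPMR1. Of the other marker lists, steroidogenic genes summed to 5215 and 629 CPM in TPMR1 and 7.84 to 34.0 CPM in the others, endothelial genes to 171 to 672 CPM in TPMCa and TPMR1 and 55.2 to 157 CPM in TPM and TPK, and terminal keratinocyte genes (10 of 11 analysed) to 13.3 to 47.7 CPM in the PI3K models and 921 to 8179 CPM in TPM and TPK. Fibroblast markers summed to 876 to 16595 CPM and macrophage markers to 302 to 4378 CPM, with overlap between the models, and lymphocyte markers to 1.05 to 142 CPM. Neutrophil-list genes summed to 7539 to 9193 CPM in TPK, 2277 to 2782 CPM in TPM and 16.2 to 2549 CPM in the PI3K models, Ltf, which uterine epithelium also makes, being most of the TPK sum. The part of these cell types in the results below was not tested, and in bulk tissue fewer dividing cells and less RNA per cell cannot be told apart.

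As a whole, the 41 genes were higher in both PI3K models than in TPM and TPK. Their summed level was 1519 and 1686 CPM in TPM, 2794 and 3176 CPM in TPMCa, 2458 and 2813 CPM in TPMR1, and 1793 and 1347 CPM in TPK. All 4 PI3K libraries lay above the other 4. For 25 genes, each of the 4 PI3K libraries was above each TPM and TPK library, and for 0 genes the reverse held, where 10% and 14.8% of all tested genes separated in these directions. TPMCa replicate 2 had the highest value of 19 genes and TPK replicate 2 the lowest of 25. The latter stood apart from its partner: 35 of 41 genes were higher in TPK replicate 1, and the TPK replicates were a median of 1.30-fold apart and up to 2.53-fold for Mcm5.

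**Figure D1:**
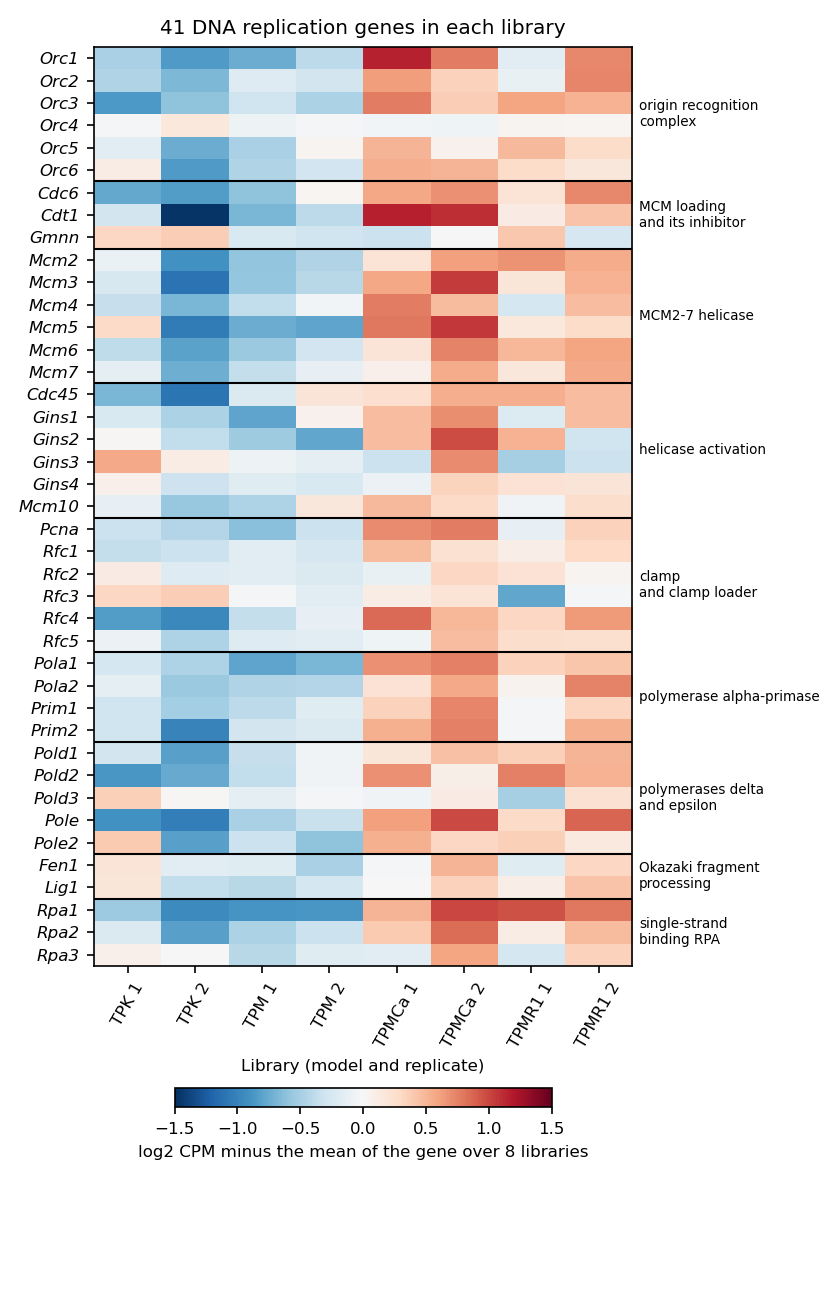
Heat map of the 41 genes (rows, grouped by role) in the 8 libraries (columns), colored by log2 CPM minus the mean of that gene over the libraries. TPMCa and TPMR1 columns are mostly red and TPM and TPK columns mostly blue, TPK 2 holds the lowest value of 25 genes, and the row of Orc4 is nearly white.

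Mki67, a marker of cycling cells that is not among the 41, spanned a similar range. It was at 175 and 177 CPM in TPM, 281 and 268 in TPMCa, 255 and 307 in TPMR1 and 186 and 136 in TPK. The summed level of the 41 genes divided by that of Mki67 ranged from 8.67 to 11.8 over the 8 libraries, a 1.37-fold range, while the sum itself ranged 2.36-fold and Mki67 2.26-fold. Relative to Mki67, the TPMCa libraries were the highest, at 9.95 and 11.8, above TPK at 9.66 and 9.92, while TPMR1, at 9.64 and 9.17, overlapped TPM, at 8.67 and 9.51. The order of the models on this ratio was not tested. Mki67 itself did not pass the threshold in TPMCa (log2 fold change 0.64 ± 0.26, adjusted p = 0.211, edgeR) or TPMR1 (log2 fold change 0.67 ± 0.26, adjusted p = 0.18, edgeR) against TPM.

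**Figure D2:**
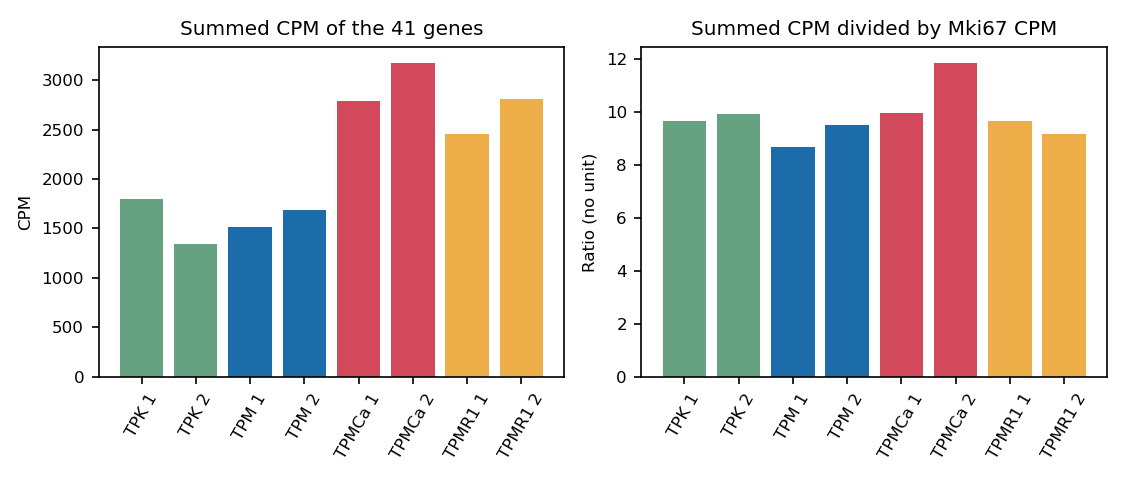
Bars give, for each library, the summed CPM of the 41 genes (left) and that sum divided by the CPM of Mki67 (right), both from 0. The sum is 1347 to 1793 CPM in TPK and TPM and 2458 to 3176 CPM in TPMCa and TPMR1, whereas the ratio spans 8.67 to 11.8.

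The first comparison set TPMCa, which carried the mutant Pik3ca, against TPM. The 2 models also differed in the cell type markers given above, so mutation and cell make-up cannot be told apart. In TPMCa, 40 of 41 genes had a higher fitted level than in TPM, with a median log2 fold change of 0.84 (1.79-fold) beside −0.01 over all genes tested. Both TPMCa libraries were above both TPM libraries for 37 genes and below for 0, against 29.1% and 32.2% of all tested genes. Rpa1 and Pola1 rose at an adjusted p under 0.05, 2 of 41 genes. Of all tested genes 3.48% passed in either direction, 74 higher and 479 lower. At an unadjusted p under 0.05, 19 members were higher and 0 lower, beside 1421 higher and 2085 lower of all 15875 genes tested.

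Rpa1, the large subunit of the protein that coats single-stranded DNA (chr11:75298166-75348324, GRCm38, minus strand), was at 66.9 and 67.2 CPM in TPM, 175 and 248 in TPMCa, 239 and 214 in TPMR1 and 84.6 and 63.7 in TPK. It was 3.16-fold higher in TPMCa than in TPM (log2 fold change 1.66 ± 0.28, adjusted p = 0.0309, edgeR), and every PI3K library lay above every TPM and TPK library. Pola1 (chrX:93304767-93632155, minus strand) was at 15.8 and 17 CPM in TPM, 43.9 and 46.3 in TPMCa, 34.7 and 36.5 in TPMR1 and 22.8 and 19.8 in TPK. It rose 2.74-fold in TPMCa (log2 fold change 1.46 ± 0.26, adjusted p = 0.0384, edgeR), and the 2 values of each model lay close together. Mcm5, a helicase subunit, had the largest fold change of the 41 and was at 54.7 and 53 CPM in TPM, 158 and 190.4 in TPMCa, 102 and 110.4 in TPMR1 and 112 and 44.2 in TPK. Its groups did not overlap but the difference missed the threshold (log2 fold change 1.70 ± 0.43, adjusted p = 0.0867, edgeR). Cdt1, which brings the helicase to the origin, was at 39.1 and 48.2 CPM in TPM, 142 and 136 in TPMCa, 68.8 and 85 in TPMR1 and 52.3 and 22.7 in TPK. Both TPMCa values exceeded every other library (log2 fold change 1.67 ± 0.41, adjusted p = 0.0799, edgeR). Without any single TPM, TPMCa or TPK library 0 genes passed, and without either TPMR1 library 4 did. With the replicate number as a block 0 passed, and DESeq2 called 13. The share of all genes called was not taken for either.

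By role, the median log2 fold change in TPMCa was 1.03 for RPA, 0.93 for the MCM helicase, 0.88 for the loading factors, 0.87 for polymerase alpha and primase, 0.81 for origin recognition, 0.62 for polymerases delta and epsilon, 0.56 for Okazaki processing, 0.49 for the clamp and loader and 0.45 for helicase activation. The 6 MCM genes were all higher, by 0.57 (Mcm7) to 1.70 (Mcm5). Pcna, the sliding clamp, was at 109.99 and 136 CPM in TPM, 276 and 288 in TPMCa, 156 and 215 in TPMR1 and 136 and 125 in TPK (log2 fold change 1.20 ± 0.26, adjusted p = 0.0621, edgeR), and the 5 loader subunits Rfc1 to Rfc5 differed by 0.25 to 0.92. Within origin recognition, Orc1 was at 15.96 and 12.1 CPM in TPMCa against 4.27 and 5.43 CPM in TPM, whereas Orc4 did not separate.

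The second comparison set TPMR1, which carried the sgRNA against Pik3r1, against TPM, with the same limit. In TPMR1, 38 of 41 genes were fitted above TPM, with a median log2 fold change of 0.60 (1.52-fold) beside 0.03 over all genes. Both TPMR1 libraries exceeded both TPM libraries for 32 genes and lay below for 1, Gins3, against 24.5% and 28.4% of all tested genes. The TPM libraries are the same as in the first comparison, so the directions are not independent. At an unadjusted p under 0.05, 9 genes were higher and 0 lower, beside 1505 higher and 2166 lower of all 15875 genes tested. Rpa1 alone rose at an adjusted p under 0.05, where 5.58% of all tested genes passed, 172 higher and 714 lower. It was 3.38-fold higher (log2 fold change 1.76 ± 0.28, adjusted p = 0.0226, edgeR). Without TPM replicate 1 or TPM replicate 2 no gene passed, and DESeq2 called 6.

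Mcm2, a helicase subunit, came next and was at 58.2 and 64.2 CPM in TPM, 101 and 135 in TPMCa, 139.7 and 129.8 in TPMR1 and 82 and 47 in TPK. Its 4 PI3K values were above all others (log2 fold change 1.14 ± 0.32, adjusted p = 0.0982, edgeR). Pola1 was 2.16-fold higher (log2 fold change 1.11 ± 0.26, adjusted p = 0.0607, edgeR). The 3 genes fitted lower were Gins3, Rfc3 and Pold3. Rfc3, a clamp loader subunit, was at 21.3 and 19.2 CPM in TPM, 23.3 and 24.9 in TPMCa, 12.5 and 21.1 in TPMR1 and 26.9 and 27.9 in TPK, and TPMR1 replicate 1 was the lowest library. Pold3, an accessory subunit of polymerase delta, was at 29.2 and 31.3 CPM in TPM, 30.9 and 34.8 in TPMCa, 22.6 and 37.5 in TPMR1 and 40.9 and 32.5 in TPK, with overlap between TPMR1 and TPM. Polymerase epsilon's catalytic gene Pole was at 26.4 and 29.5 CPM in TPM, 56.7 and 73.6 in TPMCa, 45.2 and 68 in TPMR1 and 19.8 and 18.1 in TPK, and its TPMR1 values were both above TPM (log2 fold change 1.02 ± 0.30, adjusted p = 0.107, edgeR).

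**Figure D3:**
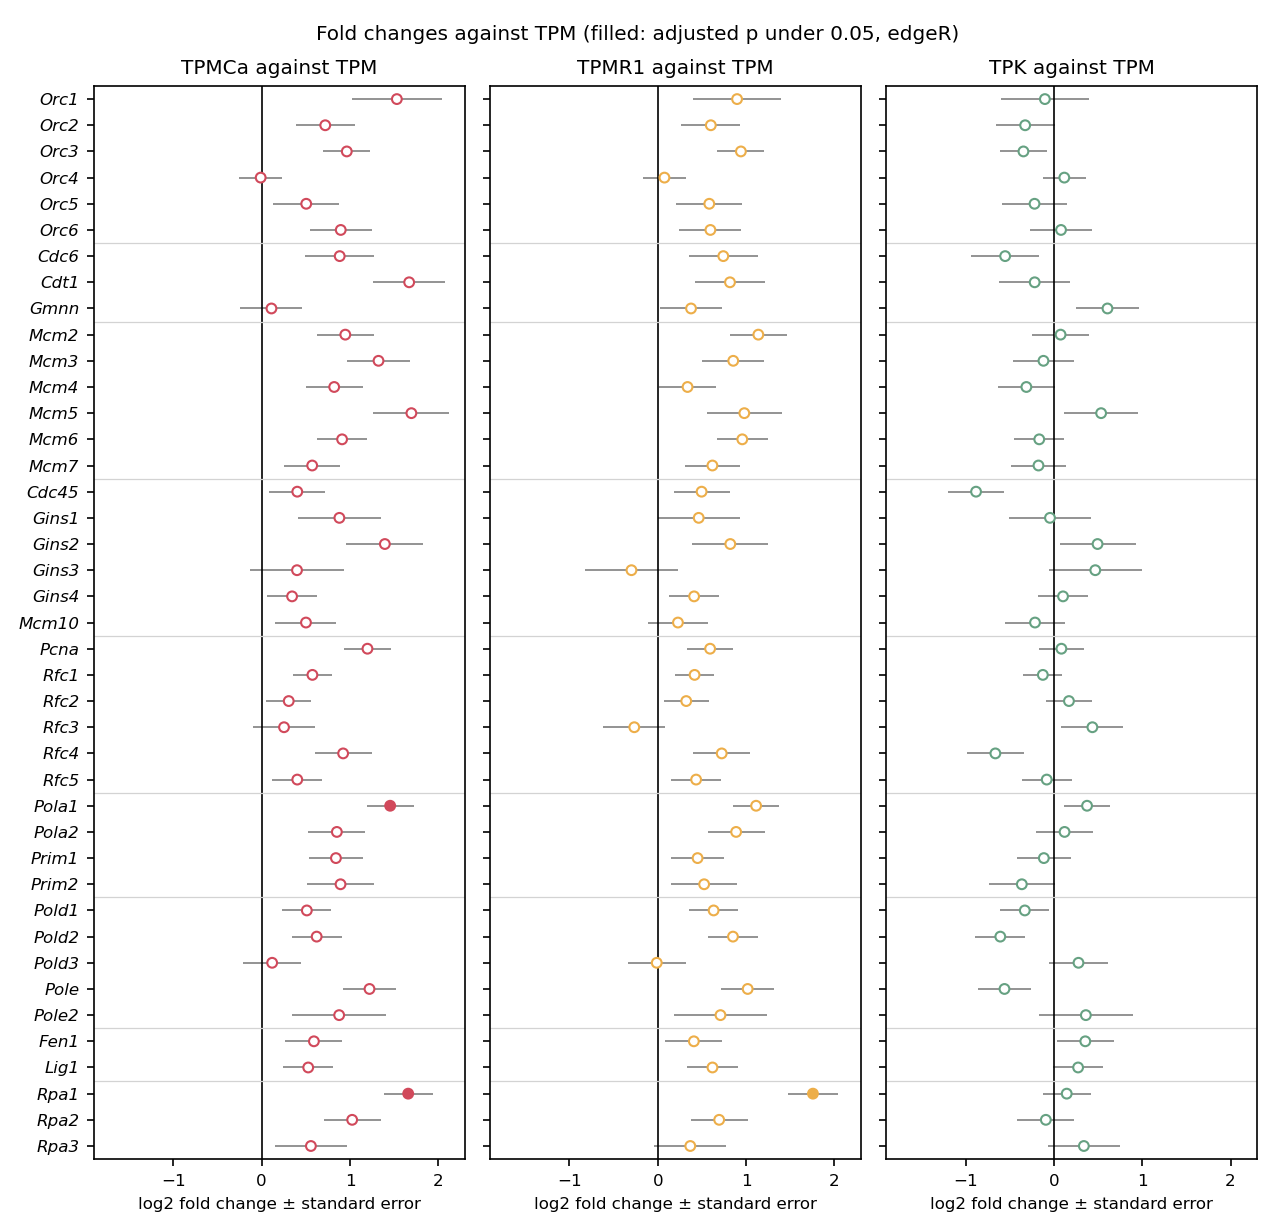
Log2 fold change with its standard error for each of the 41 genes in TPMCa, TPMR1 and TPK, each against TPM, from 1 edgeR fit over 8 libraries, with filled points at an adjusted p under 0.05. Points lie mostly right of 0 for TPMCa (median 0.84) and TPMR1 (median 0.60) and on both sides of 0 for TPK (median −0.08). The filled points are Pola1 and Rpa1 in TPMCa and Rpa1 in TPMR1.

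The PI3K models were then compared with each other. Of 41 genes, 15 were fitted higher and 26 lower in TPMR1 than in TPMCa, with a median log2 fold change of −0.17 beside 0.01 over all genes. By edgeR 0 genes passed, of 0% of all tested genes, 0 had an unadjusted p under 0.05 and DESeq2 called 0. Of all 15875 genes tested, 872 were higher and 995 lower at that unadjusted p (edgeR). Both TPMR1 libraries were below both TPMCa libraries for 14 genes and above for 1, against 17.7% and 18.8% of all tested genes. Without TPMCa replicate 1 the first count was 26 and without TPMR1 replicate 2 it was 24. With 1 library left on a side, overlap is less likely for any gene. No share over all genes was taken there, so these counts cannot be set beside the 14. The 3 largest differences were those of Cdt1 (log2 fold change -0.85 ± 0.40, adjusted p = 0.454, edgeR), Mcm5 (log2 fold change -0.72 ± 0.42, adjusted p = 0.533, edgeR) and Gins3 (log2 fold change -0.70 ± 0.53, adjusted p = 0.621, edgeR). Gins3, a GINS subunit, was at 6.08 and 5.78 CPM in TPM, 5.13 and 10.5 in TPMCa, 4.53 and 5.11 in TPMR1 and 9.49 and 6.92 in TPK, and the TPMCa replicates were 2.05-fold apart.

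TPK, which has no introduced Myc, did not stand clearly above or below TPM. In TPK 19 genes were fitted higher and 22 lower, with a median log2 fold change of −0.08 beside 0.01 over all genes. By edgeR 0 genes passed, of 0% of all tested genes, DESeq2 called 0, and at an unadjusted p under 0.05 there were 0 higher and 1 lower, Cdc45. Of all 15875 genes tested, 535 were higher and 603 lower at that unadjusted p (edgeR). The TPK libraries were both above TPM for 9 genes and both below for 9, against 24.4% and 23.5% of all tested genes. Both TPK replicates weighed on these values: the median was 0.15 without TPK replicate 2 and −0.29 without TPK replicate 1. Without TPM replicate 2 the median was 0.08. Without TPK replicate 2, 23 genes were above both TPM libraries. With 1 TPK library left, overlap is less likely for any gene. No share over all genes was taken there, so this count cannot be set beside the 9. Cdc45, part of the active helicase, was at 20.8 and 27.5 CPM in TPM, 28.7 and 35.2 in TPMCa, 35 and 33.1 in TPMR1 and 14.9 and 11.3 in TPK (log2 fold change -0.88 ± 0.32, adjusted p = 0.683, edgeR). Rfc4, a clamp loader subunit, was at 15.3 and 18 CPM in TPM, 35.3 and 27.7 in TPMCa, 24.4 and 30.5 in TPMR1 and 11 and 10.02 in TPK (log2 fold change -0.66 ± 0.32, adjusted p = 0.715, edgeR). Its exons share 194 bases with Eif4a2 on the opposite strand, and whether counting used strand is not given in the sources used here. Pold2, an accessory subunit of polymerase delta, was at 64.1 and 80.02 CPM in TPM, 133 and 88.5 in TPMCa, 141 and 119 in TPMR1 and 45.3 and 49.3 in TPK (log2 fold change -0.61 ± 0.28, adjusted p = 0.706, edgeR). In all 3 genes both TPK values lay below both TPM values. Gmnn, the geminin gene whose protein holds Cdt1 back, was at 17.5 and 16.6 CPM in TPM, 16.4 and 20.4 in TPMCa, 27.1 and 17.1 in TPMR1 and 25.4 and 26.5 in TPK, both TPK values being above both TPM values (log2 fold change 0.61 ± 0.35, adjusted p = 0.744, edgeR).

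The largest number of calls came from TPK against the mean of the PI3K models. TPK differed from both in the introduced Myc, the PI3K alteration and the cell type markers given above, which cannot be told apart. In this comparison 36 of 41 genes were fitted lower and 5 higher in TPK, with a median log2 fold change of −0.77 beside −0.002 over all genes. At an adjusted p under 0.05, 10 genes were lower in TPK and 0 higher, where 14.4% of all tested genes passed, 644 lower and 1643 higher. Both TPK libraries were below all 4 PI3K libraries for 28 genes and above for 1, Rfc3, against 18.5% and 22.4% of all tested genes. At an unadjusted p under 0.05, 23 genes were lower and 0 higher, beside 2104 lower and 2973 higher of all 15875 genes tested. The 10 calls spanned the steps of replication: Orc3 at the origin, Cdc6 and Cdt1 in loading, Mcm6 and Cdc45 in the helicase, Rfc4 in the clamp loader, and Pola1, Pold2, Pole and Rpa1 at the fork. The number of calls changed with the libraries in the fit, also those of TPM, which is not compared here, and the cause was not tested: 0 genes passed without TPK replicate 2, 3 without TPK replicate 1 or TPMCa replicate 1, 4 without either TPM library and 5 without TPMCa replicate 2. Without TPK replicate 2 the log2 fold changes of the 10 genes still lay between −1.61 (Pole) and −0.81 (Pola1). The block left 5 calls, and DESeq2 made 21.

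Pole, whose levels are given above, was 3.2-fold lower in TPK (log2 fold change -1.68 ± 0.28, adjusted p = 0.0128, edgeR) and Rpa1 2.96-fold lower (log2 fold change -1.56 ± 0.25, adjusted p = 0.0117, edgeR). Rfc4 was 2.8-fold lower (log2 fold change -1.49 ± 0.30, adjusted p = 0.0224, edgeR) and Pold2 2.54-fold lower (log2 fold change -1.34 ± 0.26, adjusted p = 0.0202, edgeR). Orc3 was at 32.3 and 28.5 CPM in TPM, 67.5 and 51.1 in TPMCa, 59.7 and 57.1 in TPMR1 and 21.8 and 26 in TPK, 2.46-fold lower in TPK (log2 fold change -1.30 ± 0.24, adjusted p = 0.0182, edgeR). Its promoter, printed above, holds 1 E2F-type word. Cdc6, an ATPase that recruits the helicase with Cdt1, was at 9.99 and 15.6 CPM in TPM, 22.7 and 24.4 in TPMCa, 17.6 and 25.2 in TPMR1 and 8.92 and 8.5 in TPK (log2 fold change -1.37 ± 0.36, adjusted p = 0.0495, edgeR). Mcm6 was at 81 and 97.2 CPM in TPM, 136 and 199 in TPMCa, 168 and 179 in TPMR1 and 91 and 67.8 in TPK, and both TPK values lay below the lowest PI3K value (log2 fold change -1.10 ± 0.26, adjusted p = 0.0371, edgeR). Cdt1 (log2 fold change -1.46 ± 0.37, adjusted p = 0.045, edgeR), Cdc45 (log2 fold change -1.33 ± 0.29, adjusted p = 0.0297, edgeR) and Pola1 (log2 fold change -0.91 ± 0.23, adjusted p = 0.047, edgeR) completed the 10. The 5 genes fitted higher in TPK were Orc4, Gmnn, Gins3, Rfc3 and Pold3, with log2 fold changes of 0.09 to 0.44, and none of them passed. Of the 10 genes called here, none passed in TPK against TPM. There Pola1 and Rpa1 were fitted higher in TPK (log2 fold change 0.38 and 0.14) and the rest lower.

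**Figure D4:**
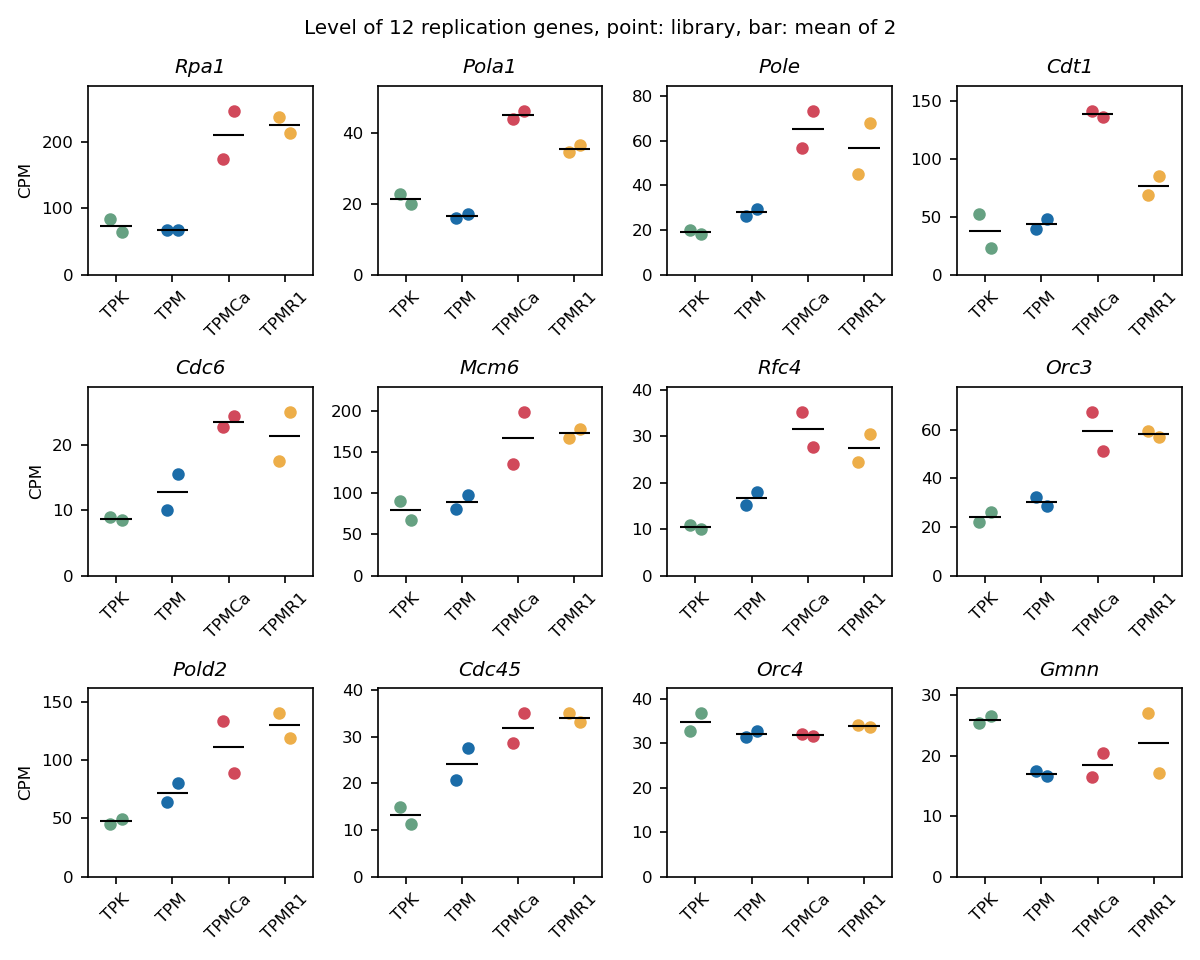
CPM of 12 genes by model on axes that start at 0, each point a library and each bar the mean of 2. The first 10 passed the test in at least 1 comparison, as Rpa1 did with 175 to 248 CPM in the PI3K models against 63.7 to 84.6 CPM in the others, while Orc4 stayed between 31.4 and 36.9 CPM and Gmnn was highest in TPMR1 replicate 1.

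Members did not vary alike. The highest over the lowest library was 2.62-fold for the median gene, over 3-fold for 13 genes and under 1.5-fold for 2. Orc4, another origin recognition subunit, was the flattest, at 31.4 and 32.7 CPM in TPM, 32 and 31.6 in TPMCa, 34 and 33.6 in TPMR1 and 32.7 and 36.9 in TPK, a 1.17-fold range. Its exons share 446 bases with Acvr2a on the opposite strand. Summed by role, RPA varied 3.33-fold over the libraries, the loading factors 3.14-fold, the MCM helicase 3.07-fold, the clamp and loader 1.83-fold and Okazaki processing 1.69-fold. Fen1, the flap endonuclease, and Lig1, the ligase that joins fragments, overlapped between TPK and the PI3K models.

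Levels can be compared between genes only per length of exon, here the union of all annotated exons, which can exceed the transcripts present. On that scale Pcna had the highest mean over the 8 libraries, 75.1 ± 29.3 CPM per kb (SD over libraries), followed by Pold2 at 47.5 ± 19.7 and Mcm7 at 31.8 ± 9.53 CPM per kb. Pcna and Pold2 had the highest means in each model, but the third place changed: it was Mcm7 in TPM (25.9 CPM per kb), Cdt1 in TPMCa (44.3), Rpa1 in TPMR1 (40.6) and Gins4 in TPK (23.9). The MCM subunits form a ring with 1 copy of each, and 5 of their genes had mean levels of 25.1 (Mcm4) to 31.8 (Mcm7) CPM per kb. Within TPM these 5 ran from 13.5 ± 0.290 (Mcm5) to 25.9 ± 2.92 (Mcm7) CPM per kb (SD, n = 2). Differences between them were not tested. Over the 8 libraries Mcm2 was lower, at 13.6 ± 5.33 CPM per kb, and was the lowest of the 6 in 7 of 8 libraries. In TPMR1 replicate 1 it was Mcm4. The exon length used for Mcm2 was 6956 bases, against 3589 to 4666 for the other MCM genes, so its place depends on that length. In mean CPM, Mcm2 was below Mcm4 in TPM and TPMCa and above it in TPMR1 and TPK. Origin recognition genes ran from Orc6 at 15.9 ± 4.91 to Orc1 at 2.33 ± 1.30 CPM per kb. In GINS, Gins4 was at 26.0 ± 4.24 and Gins3 at 2.47 ± 0.805 CPM per kb. Of RPA, Rpa1 was at 26.0 ± 14.8, Rpa3 at 15.9 ± 3.92 and Rpa2 at 13.5 ± 5.16 CPM per kb, but the first place of Rpa1 came from the PI3K models. In TPM Rpa1 and Rpa3 overlapped, and in TPK Rpa3, at 16.01 ± 0.559 CPM per kb (SD, n = 2), was above Rpa1, at 13.3 ± 2.65, in both libraries. Gins2 shares 2758 exon bases with Gse1 on the opposite strand, so its level is uncertain.

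**Figure D5:**
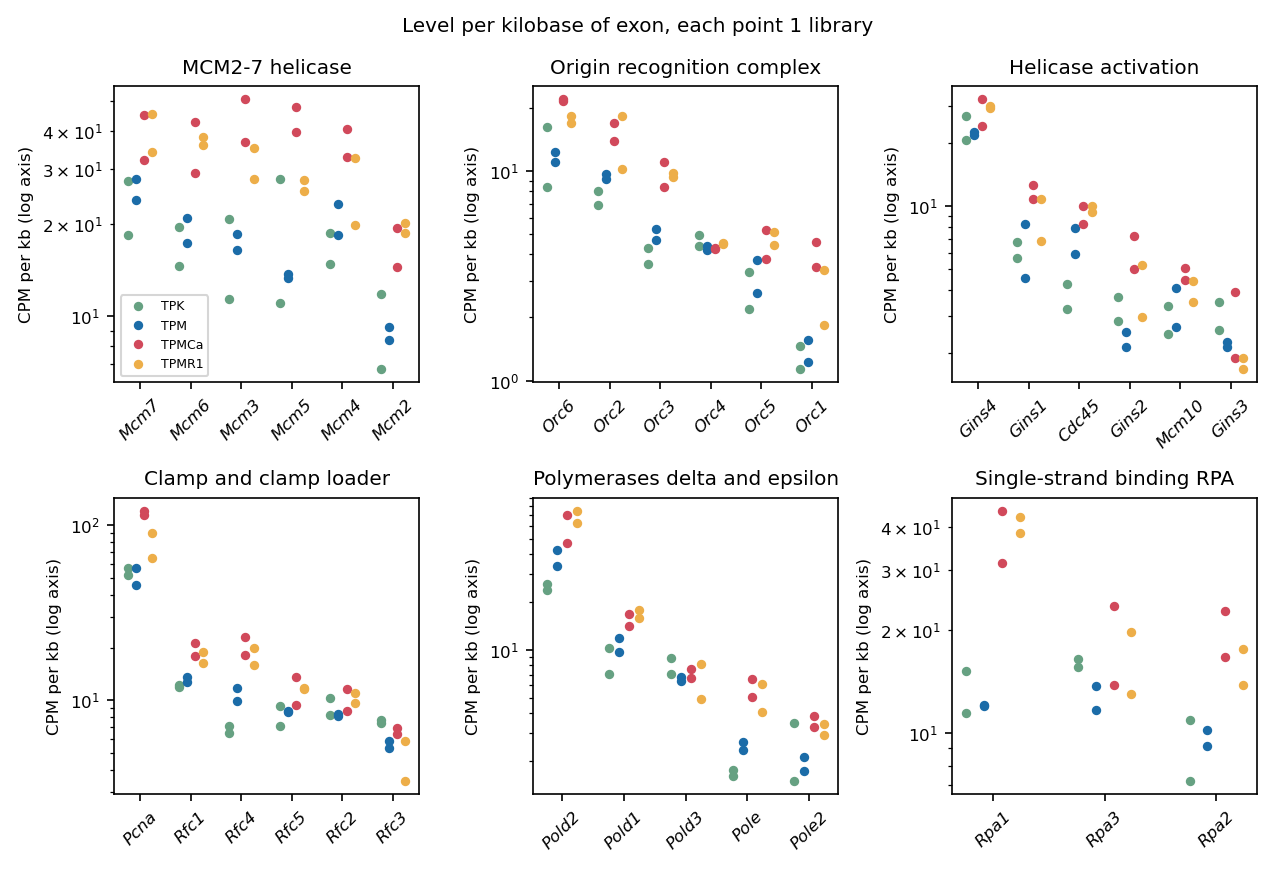
CPM per kilobase of exon (log axis) of the subunits of 6 groups, each point a library colored by model, genes ordered by their mean. Mcm2 lies under the other MCM genes in 7 of 8 libraries, Pcna is the highest gene of its panel with a mean of 75.1 CPM per kb, and the points of Orc4 nearly coincide.

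The E2F-type words were set beside the fold changes. In TPMCa against TPM, the 15 genes with a word had a median log2 fold change of 0.88 and the 18 without one 0.67, both ranges being wide (0.12 to 1.70 and −0.01 to 1.66). In TPMR1 the medians were 0.74 and 0.59, and in TPK against the mean of the PI3K models −0.90 and −0.76. Rpa1, Rfc4, Pold2 and Cdc45, all called in a comparison, had no word in these windows, whereas Gins3, Rfc3 and Pold3, which did not follow the rest, each had at least 1. No test was made between these sets.

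Of 57 other replication and E2F genes (origin firing, further subunits, fork protection, nucleotide supply, chromatin assembly and the E2F factors), in TPMCa 48 had a higher and 9 a lower fitted level than in TPM, with a median log2 fold change of 0.69, and 1 rose at an adjusted p under 0.05, beside 3.48% of all tested genes called. In TPMR1 there were 49 higher and 8 lower, with a median of 0.65 and 2 calls, beside 5.58%. E2f1, an activating E2F factor, was at 14.4 and 14.1 CPM in TPM, 39.5 and 63.4 in TPMCa, 49.5 and 54.1 in TPMR1 and 16.2 and 13.4 in TPK, and rose in TPMCa (log2 fold change 1.85 ± 0.33, adjusted p = 0.0357, edgeR) and TPMR1 (log2 fold change 1.86 ± 0.33, adjusted p = 0.0281, edgeR). The 8 E2F factors as a list were mixed. Against TPM, 5 were fitted higher and 3 lower in TPMCa (median 0.29), and 5 higher and 3 lower in TPMR1 (median 0.38). Cdc7, the kinase that fires loaded origins, was at 13.3 and 13.7 CPM in TPM, 29.6 and 44.1 in TPMCa, 74.6 and 57.5 in TPMR1 and 10.6 and 6.66 in TPK, and rose in TPMR1 (log2 fold change 2.29 ± 0.37, adjusted p = 0.0245, edgeR). In TPK against TPM, 22 were higher and 35 lower and 0 passed by edgeR, with 0 higher and 2 lower at an unadjusted p under 0.05. Between the PI3K models 28 were higher and 29 lower in TPMR1 and 0 passed, with 1 higher at an unadjusted p under 0.05. The counts over all genes for both comparisons are given above. Against the mean of the PI3K models, 51 were lower in TPK, with a median of −0.71 and 10 calls, beside 14.4% of all tested genes. The 9 called lower in TPK were Cdc7, Ccne1, Recql4, Topbp1, Atad5, Timeless, Atr, Dtymk and E2f1, and Chtf8, part of an alternative clamp loader, was called higher.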

How the data were processed

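RNA of 8 samples (2 each of TPM, TPMCa, TPMR1 and TPK) was sequenced, and the authors aligned reads to mm10 with STAR. Whether the samples were tumor organoids or tumor tissue was not settled. The deposited table holds raw counts per gene symbol. The counter and annotation are not given in the sources used here. A second deposited table holds the same counts normalized by DESeq2 and was not used. Models came from the labels, which call TPMCa and TPMR1 TPMPik3ca and TPMPik3r1. The count columns call TPM TPMS. The study describes the 2 libraries of each model as coming from 2 mice, which the labels do not state, and p-values measure the spread between these libraries.

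Counts were fitted in 1 edgeR quasi-likelihood model (edgeR 4.0.16, R 4.3.3, TMM, filterByExpr) over all 8 libraries, with 5 comparisons and Benjamini-Hochberg adjustment over 15875 genes at 0.05. The standard error beside a log2 fold change was derived from the test, as the absolute change divided by the square root of the F statistic. Totals ran from 15748396 to 26943611 counts. Floors of 3 counts cover counting error only. Members that passed in a comparison, and the 3 with the largest change in each, are given in every library, and Orc4, Gmnn, Rfc3, Pold3, Pcna and Orc1 were added after their values were seen. The 41 members, the lists and the comparisons were chosen with earlier results of these data known. Exon lengths (the union of all annotated exons of a gene) came from GENCODE M21 and promoters from RefSeq. Alternatives were DESeq2 1.42.0, other scalings and filters, only the models compared, a replicate block and leaving out each library. Some engineered genes are not reported here.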

Additional observations from a re-analysis of the deposited data

How the results depend on the processing

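No direction of a median turned except in TPK against TPM. The 2 calls in TPMCa against TPM became 13 with DESeq2, 1 with library size only, 4 with only the models compared and 0 with the replicate block, and 0 to 4 on leaving out 1 library. The 1 call in TPMR1 against TPM became 6 with DESeq2, 0 with only the models compared and 0 to 1 on leaving out 1 library. The 10 calls in TPK against the mean of TPMCa and TPMR1 became 21 with DESeq2, 5 with the replicate block, 5 with only the models compared and 0 to 14 on leaving out 1 library. The cause was not tested. The share of all genes called was taken for the main fit only, so the other counts have no such share beside them. Leaving out 1 library moved the median of TPK against TPM to −0.29 to 0.15, of TPMR1 against TPMCa to −0.37 to −0.054 and of TPK against the mean to −1.10 to −0.62. Genes above in TPK against TPM without overlap numbered 8 to 23, and those below in TPMR1 against TPMCa 10 to 26, with 9 by library size only. Where a compared model was left with 1 library, overlap was less likely for any gene. The counts without overlap, and the 25 genes that separate 4 libraries from 4, were chosen after seeing the data. Replicate numbers did not pair the libraries (correlations of deviations −0.08 to 0.007). For single genes, 264 values kept their side of the threshold, 75 lost it and 6 gained it. Library size only moved the median of all genes to −0.11 in TPK against TPM and −0.13 in TPK against the mean.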
